A study of Mus musculus with 12 samples.

Results

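Ribosomal proteins of the cytosol were followed in mouse leukemia cells. A list of 49 genes was matched to the deposited table by symbol, and 47 of them had a row with a mean of at least 1 FPKM, among 25263 symbols in all. FPKM express the level of a gene as sequenced fragments corrected for transcript length and library size. Of the 47, 29 encode proteins of the large subunit (Rpl genes, with the stalk proteins Rplp0, Rplp1 and Rplp2) and 18 encode proteins of the small subunit (Rps genes and Rpsa). Rpl13 and Rpl19 were not analysed here. Rpl38 had 3 rows and Rps20 had 2, of which the one with the highest mean is used.

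The cells came from adult mouse bone marrow and expressed the leukemia fusion protein MLL-AF9 (MA9), in which the start of the histone methyltransferase MLL is joined to AF9. They were grown overnight in a mix of myeloid cytokines, infected with a retrovirus and sorted for high GFP. The 4 groups held 3 libraries each. WT-GFP cells had a wild type Hoxa cluster and the control virus, and WT-Cre cells had the wild type cluster and a virus for Cre recombinase. Hoxa-flox cells had a floxed Hoxa cluster and the control virus, and Hoxa-del cells were floxed cells given Cre. The labels give the strain C57BL/6 for the WT libraries and C57BL/6J for the floxed ones, so genotype and strain cannot be told apart. The labels do not say whether the 3 libraries of a group came from separate cultures, animals or leukemias, so the p-values reflect the spread of these libraries alone, which may be technical.

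Ribosomal proteins assemble with ribosomal RNA in the nucleolus into the small subunit, which reads the mRNA, and the large subunit, which joins amino acids. Their mRNAs are among the most abundant of growing cells, and many start with a C followed by a run of pyrimidines, the terminal oligopyrimidine (TOP) motif through which the kinase mTORC1 controls their translation. In blood, loss of a single copy of several of these genes causes Diamond-Blackfan anemia. Mammalian genomes also hold many processed pseudogenes of ribosomal proteins, copies made from spliced mRNA, and several ribosomal protein genes carry small nucleolar RNAs (snoRNAs) in their introns.

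Start regions were read for the 38 members with an entry in the RefSeq promoter table (build GRCm38.p6, 43 promoters). The lines below show 6 members with a pyrimidine run near the annotated start and 2 without one, each from 10 bases before that start to 20 bases at and after it, 5′ to 3′ on the gene's strand. Capitals mark a run of at least 6 C or T that begins with C. A run could begin anywhere in the window, whereas the TOP motif lies at the first base of the mRNA. In none of the 6 shown did the run begin at the annotated first base, so having or lacking a run does not settle whether an mRNA has the TOP motif. Starts are those of RefSeq. The GENCODE M21 gene models of all 6 members shown with a run, and of Rps4x, begin further upstream. For a member with several promoters, the one with the longest run stands for it.
Rpl14 (chr9:120571507-120571536, + strand): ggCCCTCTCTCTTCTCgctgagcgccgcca
Rpl13a (chr7:45128726-45128755, - strand): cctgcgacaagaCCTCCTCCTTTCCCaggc
Rps18 (chr17:33955646-33955675, - strand): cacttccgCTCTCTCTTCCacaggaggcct
Rpl18 (chr7:45718061-45718090, + strand): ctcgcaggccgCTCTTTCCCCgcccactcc
Rpl28 (chr7:4792955-4792984, + strand): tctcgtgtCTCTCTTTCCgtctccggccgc
Rplp2 (chr7:141447641-141447670, + strand): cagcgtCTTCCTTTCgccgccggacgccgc
Rplp0 (chr5:115559457-115559486, + strand): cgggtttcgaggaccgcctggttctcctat
Rps4x (chrX:102189372-102189401, - strand): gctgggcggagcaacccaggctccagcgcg
Such a run began within this window in 24 of the 43 promoters (55.81%), against 24.94% of 32851 promoters of the table. Runs of at least 8 were in 39.53% and 10.52%. Over the 250 bases before and 50 after the start, both strands were searched for 4 motifs, which may overlap each other. The ETS core CCGGAAG, bound by factors such as GABP, was in 30.23% of the members' promoters and in 8.86% of all promoters of the table. The GC box CCCGCCC, bound by SP1, was in 34.88% of the members' promoters and in 25.57% of all. The YY1 motif AAGATGGC was in 4.65% and 2.75%. The TATA box, searched for as TATAAA, was in 4.65% and 13.62%. A match describes the letters of the window and is not a measured site.

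The second set of sequences bears on how the rows of the table can be read. In GENCODE M21 (GRCm38), 81 rows of the table belong to other genes whose transcripts hold at least 25% of the 50-base words of a member. These are called look-alike rows here; 72 are processed pseudogenes, 4 transcribed processed pseudogenes and 5 are annotated as protein coding. They touch 32 of the 47 members. The first 60 coding bases are shown for 3 members with a pseudogene row far above their own; the capitals that would mark a differing base are absent because no base differs.
Rpl38 (chr11:114668524-114672331) and Rpl38-ps2 (chr6:140746960-140747172): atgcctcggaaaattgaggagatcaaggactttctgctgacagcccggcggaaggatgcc
Rps6 (chr4:86854660-86857412) and Rps6-ps4 (chr2:75191073-75191822): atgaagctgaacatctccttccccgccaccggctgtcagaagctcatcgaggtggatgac
Rpl12 (chr2:32961559-32965345) and Gm10275 (chr10:29698746-29699380): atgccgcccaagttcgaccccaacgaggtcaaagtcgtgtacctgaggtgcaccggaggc
Over the whole coding sequence, 0 of 210 bases differed for Rpl38, 0 of 747 for Rps6 and 0 of 495 for Rpl12. A read inside such a stretch matches both genes equally well, so the level of a member's own row is uncertain where it has such a copy.

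Library depth, estimated from the steps between low values, ran from 3.99 M fragments (WT-Cre 2) to 18.8 M (WT-GFP 3), and 0 members were at 0 in any library. As a check of the labels, Hoxa9 of the deleted cluster lay between 217 and 257 FPKM in Hoxa-flox and after Cre between 83.5 and 119, against 152 to 183 in the WT libraries. The floxed libraries fell into sets that cut across the groups. On the first principal component of the 6 floxed libraries, computed without ribosomal protein rows (64.4% of the variance), Hoxa-flox 1, Hoxa-flox 2 and Hoxa-del 2 lay apart from Hoxa-flox 3, Hoxa-del 1 and Hoxa-del 3. The proliferation gene Mki67 was at 16.4, 14.9 and 17.8 FPKM in the first set and at 88.5, 84.6 and 93.2 in the second, which are called the low-Mki67 and the high-Mki67 libraries below. It was at 65.1 to 78.2 FPKM in the 6 WT libraries. Because the sets were read from the data, they are described and not tested.

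The members differed widely in level. On the FPKM scale, which corrects for length, the mean over 12 libraries ran from 5.35 FPKM for Rps23, a protein of the decoding centre, to 3357 FPKM for the stalk protein Rplp1, with a median of 135. There were 6 members at or above 1000 FPKM, 20 between 100 and 1000, 10 between 20 and 100, and 11 below 20. The 5 highest (Rplp1, Rpl32, Rps15, Rps9 and Rpl13a) made up 40.7% to 51.0% of the members' sum in a library. Across the 47 members, the level was lower where more of the transcript's 50-base words occur in other genes (Spearman's rho -0.463, n = 47 genes measured in the same libraries).

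**Figure D1:**
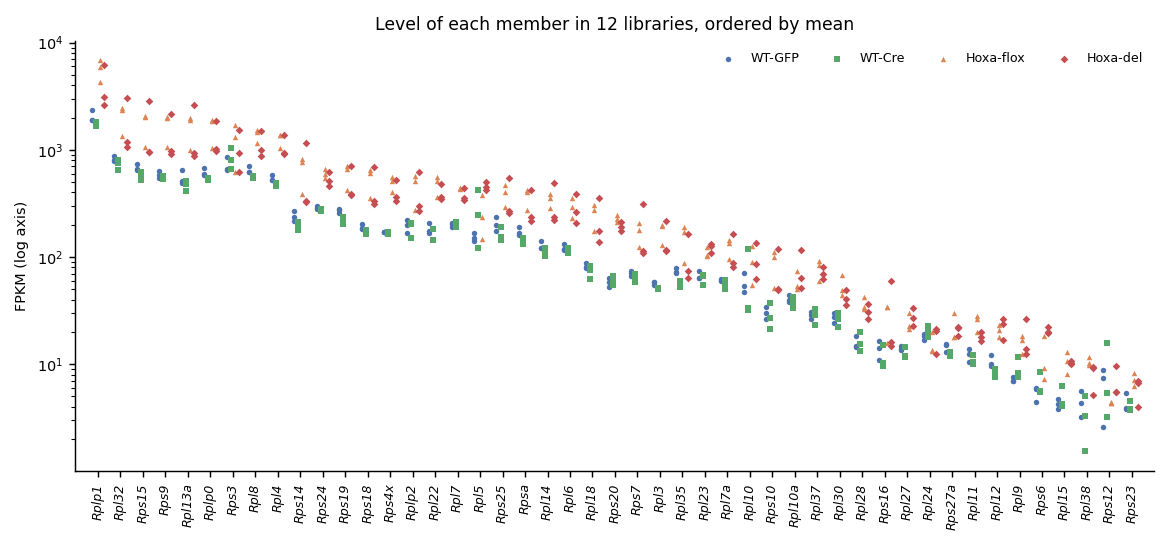
Level in FPKM (log axis) of each of the 47 members, ordered by mean; each point is a library, coloured by group. For most members the floxed libraries (Hoxa-flox and Hoxa-del) lie above the WT libraries; Rpl24 and Rps12, towards the right, are exceptions.

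All 11 members below 20 FPKM had look-alike rows. In 19 members the look-alike rows together exceeded the member's own row. Rpl38 had 6.55 FPKM in its own row, while Rpl38-ps2 had 1034 and Gm8129 had 611. Rps6, the substrate of the S6 kinases, had 11.03 FPKM, while Rps6-ps4 alone had 448. Rpl12 had 15.5 FPKM against 849 in Gm10275, and Rps23 had 5.35 against 335 in Rps23-ps1. When each member's row was added to its look-alike rows, 1 member remained under 20 FPKM (Rpl15, 13.7 FPKM) and the median of the 47 means was 446. This sum was chosen after the data were seen, and FPKM of rows of different length are added in it.

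**Figure D2:**
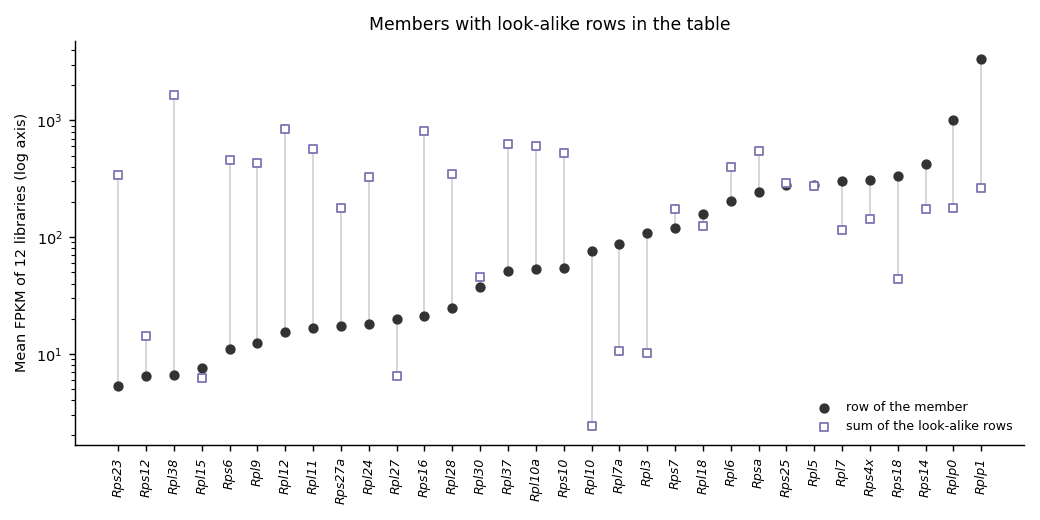
Mean FPKM over 12 libraries (log axis) of a member's own row (filled circles) and of the sum of its look-alike rows (open squares), for the 32 members with such rows. On the left, the look-alike rows of Rpl38, Rps6, Rpl12 and Rps23 lie far above the own rows of 6.55, 11.03, 15.5 and 5.35 FPKM; on the right, Rplp1 and Rplp0 lie above theirs.

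The comparison of Hoxa-flox with WT-GFP sets floxed against wild type leukemia with the same control virus. Ribosomal protein mRNAs were higher in the floxed cells in both subunits. Of the 47 members, 38 passed the test as higher and 0 as lower (limma, adjusted p under 0.05), against 13.3% of 13169 symbols higher and 13.5% lower. The median log2 change of the members was 1.12, and that of all symbols was 0.0006. By subunit, 24 of 29 large-subunit members were called with a median of 1.13, and 14 of 18 small-subunit members with a median of 1.10. In 41 of the 47 every Hoxa-flox library lay above every WT-GFP library, as did 23.9% of all symbols. With the look-alike rows added, 42 members passed as higher and 0 as lower, with a median of 1.26.

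The same genotypes were compared after Cre, in Hoxa-del against WT-Cre, which uses other libraries than the comparison above but the same pooled spread. Here 37 members passed as higher and 0 as lower, against 13% and 14.2% of all symbols (limma), with a median of 1.05 against 0.0038. Every Hoxa-del library lay above every WT-Cre library in 40 members, against 20.7% of all symbols. The count was 23 without WT-Cre 3 and 22 in a fit of these 6 libraries alone, with 2552 and 2399 of 13169 symbols called. In all, 35 members were called in both comparisons and 7 in neither (Rpl5, Rpl10, Rpl24, Rpl35, Rps3, Rps12 and Rps16). The share of all symbols called higher in both was not counted, and it cannot exceed the 13% called higher after Cre. All 6 floxed libraries lay above all 6 WT libraries in 37 members, against 12.9% of all symbols.

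Summed over the 47 members, the WT-GFP libraries held 11303, 10139 and 10127 FPKM and the WT-Cre libraries 10126, 9765 and 8821. The Hoxa-flox libraries held 30335, 29044 and 18519 FPKM. The Hoxa-del libraries held 16306, 32813 and 15784 FPKM. No floxed library overlapped the WT libraries, and the 3 highest sums were those of the low-Mki67 libraries. A share was also taken of the FPKM outside the 10 rows with the highest mean over the 12 libraries. Of that, the members took 2.199% to 2.475% in the WT libraries, 3.76% to 4.15% in the high-Mki67 libraries and 5.55% to 5.64% in the low-Mki67 libraries. With no row left out, the shares were 1.26% to 1.64%, 2.05% to 2.68% and 2.72% to 3.54%. There Hoxa-del 2 (2.72%) lay next to the high-Mki67 library Hoxa-flox 3 (2.68%). The FPKM of all rows summed to between 548383 (WT-Cre 3) and 1211910 (Hoxa-del 2), so the libraries differed in total.

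**Figure D3:**
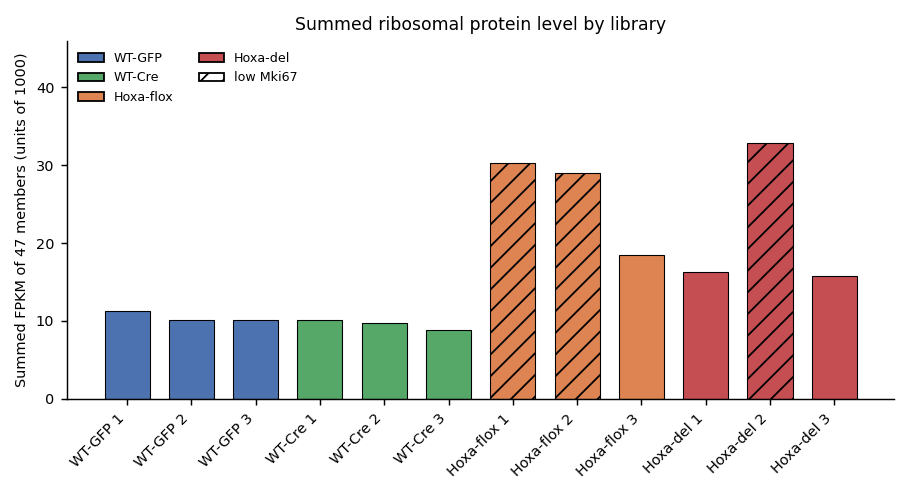
Summed FPKM (axis in units of 1000) of the 47 members in each of the 12 libraries; bars are coloured by group and hatched for the low-Mki67 libraries. The WT bars lie between 8821 and 11303 FPKM, the high-Mki67 floxed bars between 15784 and 18519, and the low-Mki67 bars between 29044 and 32813.

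Most markers of more mature myeloid cells were lower in the floxed cells. The 8 macrophage markers summed to 319 to 361 FPKM in the WT libraries, to 70.9 to 257 in Hoxa-flox and to 62.5 to 248 in Hoxa-del, and 5 of the 8 passed as lower in each comparison of genotypes. C1qc was at 0 in every Hoxa-del library. Not all macrophage markers were lower, and the highest change of 1 against WT-GFP was 0.83. In each low-Mki67 library 2 of the 8 lay above the mean of WT with the same virus. In the high-Mki67 libraries 0 or 1 did. The 6 late neutrophil markers summed to 1233 to 1749 FPKM in the WT libraries and to 23.2 to 499 in the floxed ones, with 4 passing as lower against WT-GFP and 3 against WT-Cre. The 6 myeloid progenitor markers summed to 3334 to 5050 FPKM in the WT libraries and to 2235 to 3770 in the floxed libraries; 2 passed as higher (Kit and Cd34) and 3 as lower against WT-GFP, and 2 as higher and 1 as lower against WT-Cre. Markers of erythroid cells summed to at most 5.59 FPKM in any library, those of B cells to at most 2.73, and those of T cells to at most 0.671 in WT and 8.67 in floxed libraries. The part of these markers in the ribosomal protein result was not tested. In bulk RNA, fewer cells of a type and less RNA per cell cannot be told apart.

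The P stalk, formed by Rplp0 with Rplp1 and Rplp2, recruits the elongation factors to the large subunit. Rplp1 had 2331, 1877 and 1911 FPKM in WT-GFP, 1730, 1811 and 1681 in WT-Cre, 6842, 5931 and 4303 in Hoxa-flox, and 3135, 6120 and 2616 in Hoxa-del. Every floxed library was above every WT library, and Hoxa-del 2 stood above the other Hoxa-del libraries. Its log2 change was 1.46 (SE 0.34, adjusted p = 0.00785, limma) with the control virus and 1.08 (SE 0.34, adjusted p = 0.0342) with Cre. The call with Cre was lost when any 1 of the 3 WT-Cre libraries was left out, and the change was 0.72 without Hoxa-del 2. Rplp0 had 669.5, 581 and 600 FPKM in WT-GFP, 550, 527 and 528 in WT-Cre, 1894, 1861 and 1039 in Hoxa-flox, and 964, 1861 and 1013 in Hoxa-del. Its groups did not overlap by genotype, and its changes were 1.32 (SE 0.29, adjusted p = 0.00654) and 1.19 (SE 0.29, adjusted p = 0.0118). Rplp2 had 220, 169 and 197 FPKM in WT-GFP, 204, 209 and 152 in WT-Cre, 508, 574 and 274 in Hoxa-flox, and 298, 626 and 266 in Hoxa-del. It passed with the control virus (log2 change 1.14, adjusted p = 0.0305, limma) and had 0.98 with Cre (adjusted p = 0.0574). The call of Rplp2 was lost in 5 of 6 fits that left out 1 library of the comparison, all but the one without Hoxa-flox 3.

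Rpl5 and Rpl11 bind the 5S ribosomal RNA, and outside the ribosome this particle inhibits Mdm2, the ligase of p53. Rpl11 had 10.6, 14.0 and 12.5 FPKM in WT-GFP, 12.3, 10.1 and 10.5 in WT-Cre, 26.2, 27.9 and 20.0005 in Hoxa-flox, and 17.7, 19.9 and 16.4 in Hoxa-del. The genotypes did not overlap, and Rpl11 was called in both comparisons, with log2 changes of 0.94 (SE 0.16, adjusted p = 0.00117, limma) and 0.67 (SE 0.16, adjusted p = 0.00917). Its own row was 2.79% of the sum with its look-alike rows, whose changes with Rpl11 added were 1.28 (adjusted p = 0.00818) and 1.24 (adjusted p = 0.0101). Rpl5 had 142, 169 and 150 FPKM in WT-GFP, 422, 247 and 121 in WT-Cre, 235, 375 and 149 in Hoxa-flox, and 422, 501 and 445 in Hoxa-del. The WT-Cre libraries spread over more than the WT-GFP range, and Hoxa-flox 3 lay within the WT-GFP range. Its changes of 0.62 (SE 0.41, adjusted p = 0.3) and 0.96 (SE 0.41, adjusted p = 0.107) did not pass. With its look-alike row added, Rpl5 passed in both (log2 changes 1.02, adjusted p = 0.012, and 1.01, adjusted p = 0.0134).

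Among the members with the largest changes was Rps20, a protein of the head of the small subunit. It had 52.9, 58.0 and 63.5 FPKM in WT-GFP, 55.05, 59.5 and 67.0 in WT-Cre, 248, 226 and 212 in Hoxa-flox, and 191, 210 and 176 in Hoxa-del. Every floxed library was above every WT library by a wide gap, and each Hoxa-del library was below each Hoxa-flox library. The log2 changes by genotype were 1.96 (SE 0.13, adjusted p = 1.39e-06, limma) and 1.65 (SE 0.13, adjusted p = 5.66e-06). A second, low row named Rps20 lay between 3.28 and 8.37 FPKM in the WT libraries and between 0.231 and 0.900 in the floxed libraries, the opposite order. Of the 50-base words of the Rps20 transcript, 7.44% occur in other genes, and Rps20 had no look-alike row. That transcript has 3706 bases, of which 357 are coding, and the share is taken over all of it. A low share can therefore hide copies of the coding part, and whether Rps20 has such copies was not tested.

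Rpl3, a large-subunit protein next to the peptidyl transferase centre, and Rpl18 followed. Rpl3 had 58.1, 54.5 and 58.1 FPKM in WT-GFP, 51.8, 50.1 and 51.3 in WT-Cre, 194, 199 and 130 in Hoxa-flox, and 114, 216 and 116 in Hoxa-del. Its log2 changes were 1.58 (SE 0.24, adjusted p = 0.000597, limma) and 1.46 (SE 0.24, adjusted p = 0.00107). Rpl18 had 88.3, 80.2 and 78.8 FPKM in WT-GFP, 62.0, 76.3 and 82.9 in WT-Cre, 305, 272 and 176 in Hoxa-flox, and 137, 353 and 176 in Hoxa-del. In both genes the floxed libraries lay above all WT libraries, with Hoxa-flox 1, Hoxa-flox 2 and Hoxa-del 2 highest. The changes of Rpl18 were 1.56 (SE 0.31, adjusted p = 0.00361, limma) and 1.47 (SE 0.31, adjusted p = 0.00534). Rpl32, the second highest member, had 792 to 871 FPKM in WT-GFP, 654 to 804 in WT-Cre, 1335 to 2451 in Hoxa-flox and 1067 to 3021 in Hoxa-del. It passed with the control virus (log2 change 1.26, adjusted p = 0.0286, limma) and had 1.09 with Cre (adjusted p = 0.0514). For Rpl32 too, that call held without Hoxa-flox 3 and was lost in the 5 other fits without 1 library.

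Several members are known for roles in blood or in disease. Of 10 members linked to Diamond-Blackfan anemia, 8 were called higher in each comparison of genotypes, with median changes of 1.08 and 1.02. This is near the share of all members (38 and 37 of 47, medians 1.12 and 1.05), so it does not set these genes apart. Among all symbols, 13.3% and 13% were called higher. Rps19, the gene most often mutated in that anemia, had 274, 255 and 277 FPKM in WT-GFP, 235, 220 and 205 in WT-Cre, 663, 711 and 425 in Hoxa-flox, and 376, 704 and 390 in Hoxa-del. The floxed libraries lay above the WT libraries without overlap (log2 changes 1.12, adjusted p = 0.00785, and 1.09, adjusted p = 0.00941, limma). Rpl22, a large-subunit protein whose loss is found in T cell leukemia, had 209, 174 and 169 FPKM in WT-GFP, 184, 145 and 143 in WT-Cre, 557, 510 and 366 in Hoxa-flox, and 360, 483 and 345 in Hoxa-del. The genotypes did not overlap, and its log2 changes were 1.36 (adjusted p = 0.000583, limma) and 1.32 (adjusted p = 0.000753).

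Rps4x, an X-linked protein of the small subunit, had 171, 172 and 172 FPKM in WT-GFP, 165, 170 and 168 in WT-Cre, 511, 554 and 407 in Hoxa-flox, and 361, 518 and 336 in Hoxa-del. The 6 WT libraries were nearly equal, and the floxed libraries were all higher. Its log2 changes were 1.498 (SE 0.18, adjusted p = 0.000125, limma) and 1.24 (SE 0.18, adjusted p = 0.000508). Rpsa, the small-subunit protein also known as the laminin receptor, had 189, 160 and 167 FPKM in WT-GFP, 149, 148 and 133 in WT-Cre, 425, 405 and 275 in Hoxa-flox, and 236, 424 and 219 in Hoxa-del. It was called in both comparisons (log2 changes 1.07, adjusted p = 0.00849, and 0.96, adjusted p = 0.0148, limma), the second lost without WT-Cre 3 (adjusted p = 0.0556). The own row of Rpsa was 30.8% of the sum with its look-alike rows. That sum changed by 1.12 (adjusted p = 0.00786, limma) and 0.86 (adjusted p = 0.0303). Rps27a, made as a fusion with ubiquitin, had 13.1 to 15.4 FPKM in WT-GFP, 11.8 to 13.1 in WT-Cre, 17.7 to 29.7 in Hoxa-flox and 18.3 to 22.2 in Hoxa-del. The genotypes did not overlap; the log2 changes were 0.52 (adjusted p = 0.06, limma) and 0.67 (adjusted p = 0.0201), the second lost without WT-Cre 1, WT-Cre 3 or Hoxa-del 3. Its own row was 8.98% of the sum with its look-alike row, which changed by 0.99 (adjusted p = 0.000289, limma) and 0.76 (adjusted p = 0.00171).

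**Figure D4:**
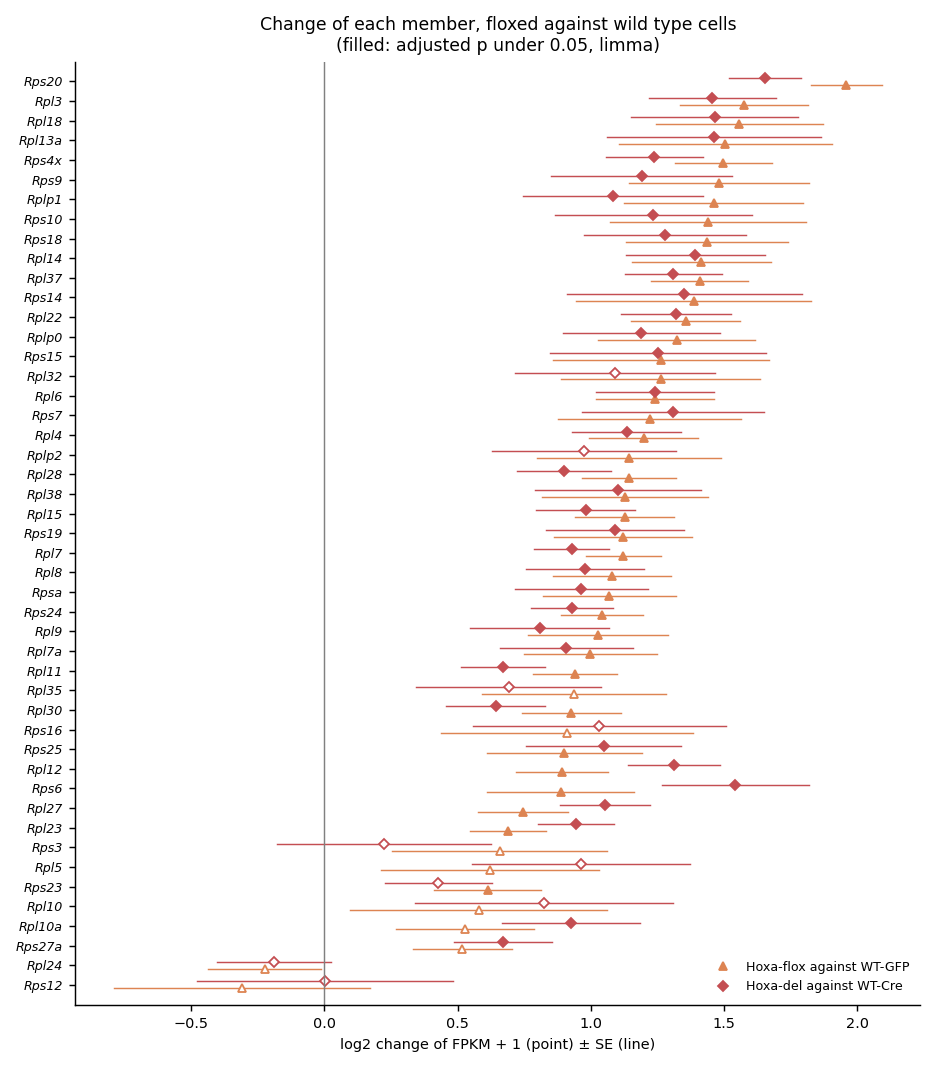
Change of each member on the log2(FPKM + 1) scale, with its standard error, in Hoxa-flox against WT-GFP (triangles) and Hoxa-del against WT-Cre (diamonds); filled symbols have an adjusted p under 0.05. Changes run from -0.31 (Rps12) to 1.96 (Rps20) with the control virus, and 38 and 37 symbols are filled.

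At the other end were Rps12 and Rpl24, whose own rows were not higher in the floxed cells. Rpl24, a protein at the bridge between the subunits, had 16.6, 18.3 and 19.2 FPKM in WT-GFP, 17.8, 22.7 and 20.3 in WT-Cre, 13.5, 13.4 and 19.7 in Hoxa-flox, and 20.5, 12.3 and 21.3 in Hoxa-del. The low-Mki67 libraries were the 3 lowest, and the others overlapped with WT. Its own row was 5.23% of the sum with its look-alike row Gm12254. That sum was 279 to 298 FPKM in WT-GFP, 241 to 262 in WT-Cre, 349 to 515 in Hoxa-flox and 304 to 536 in Hoxa-del, so the groups did not overlap by genotype. The log2 change of Rpl24 was -0.22 (adjusted p = 0.485, limma) for its own row and 0.61 (adjusted p = 0.0707) for the sum.

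Rps12 had 8.82, 2.60 and 7.46 FPKM in WT-GFP, 15.6, 5.40 and 3.21 in WT-Cre, 4.32, 4.39 and 4.47 in Hoxa-flox, and 5.50, 5.48 and 9.67 in Hoxa-del. The WT libraries enclosed all floxed libraries. Its changes were -0.31 (SE 0.48, adjusted p = 0.683, limma) and 0.0019 (SE 0.48, adjusted p = 0.998), and 0.76 (adjusted p = 0.0876) and 0.52 (adjusted p = 0.234) with its look-alike rows. Rps23, the lowest row, had 5.36, 3.84 and 3.86 FPKM in WT-GFP, 4.54, 3.797 and 3.71 in WT-Cre, 7.04, 6.23 and 8.22 in Hoxa-flox, and 7.02, 3.995 and 6.60 in Hoxa-del. Hoxa-del 2 lay within the WT range. It changed by 0.61 (adjusted p = 0.0439, limma) and had 0.43 with Cre (adjusted p = 0.143); the call was lost in 5 of 6 fits without 1 library, all but that without WT-GFP 1. The sum with its look-alike rows changed by 1.30 (adjusted p = 0.000742) and 0.98 (adjusted p = 0.00454).

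The 3 members with the widest spread among the WT-Cre libraries host snoRNAs. In GENCODE M21, 18 members hold 36 snoRNAs on their strand. In WT-Cre the SD on the log2 scale was 1.05 for Rpl10, 1.01 for Rps12 and 0.90 for Rpl5. It was 0.33 for the hosts Rps16 and Rps3, against a median of 0.143 over the members. The spread did not go with hosting throughout: its median was 0.161 over the 18 hosts and 0.128 over the 29 others, the hosts Rpl3 (0.0241) and Rpl4 (0.0458) were narrow, and Rpl38 (0.63) and Rps10 (0.40), which are no hosts, lay above Rps3. Rpl10, a protein of the large subunit joined late in assembly, had 118, 32.2 and 33.3 FPKM in WT-Cre, and Rps3 had 1039, 810 and 656. For Rpl5, Rpl10, Rps3 and Rps12, WT-Cre 1 was the highest of its group, and 0 of these 4 passed in either comparison of genotypes. Of these, Rpl10 and Rps3 were picked from the 18 hosts after their values were seen, and Rps16 was not included. Whether snoRNA reads entered these rows was not tested. Over all 18 hosts the median change in Hoxa-flox against WT-GFP was 1.03, and over the 29 other members 1.13.

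Cre in floxed cells, which targets the Hoxa cluster, gave no call among the members. RNA of the cluster remained: Hoxa9 averaged 106 ± 19.3 FPKM in Hoxa-del and 237 ± 20.1 in Hoxa-flox (SD, n = 3), against 162 in WT-Cre and 167 in WT-GFP. In Hoxa-del against Hoxa-flox, 0 of 47 members passed (limma), against 0.00759% of all symbols as higher and 0.0228% as lower. At an unadjusted p under 0.05 there were 3 members (Rpl5, Rpl11 and Rps6) and 826 of all symbols. The median change was -0.23, against -0.06 over all symbols. Each group mixes the library sets, with 2 low-Mki67 libraries of 3 in Hoxa-flox and 1 of 3 in Hoxa-del. With the set as a term, the median was 0.01 and 0 members passed. Array weights, which set the weight of each library by its spread, gave 28 members (3 higher, 25 lower), among 5173 of all symbols called.

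Without regard to a test, Rpl5, Rps6 and Rps12 lay higher in every Hoxa-del library than in every Hoxa-flox library (2.25% of all symbols did), and Rpl11, Rpl38 and Rps20 lay lower (4.14%). Rps6 had 7.29, 9.23 and 18.3 FPKM in Hoxa-flox and 19.8, 22.3 and 19.7 in Hoxa-del (log2 change 0.87, SE 0.28, adjusted p = 0.729, limma). Hoxa-flox 3 lay next to the Hoxa-del values and the other Hoxa-flox libraries far below. With the 6 look-alike rows of Rps6 added, the sign turned (log2 change -0.49, adjusted p = 0.729). For Rpl5 the change was 0.94 (SE 0.41, adjusted p = 0.729, limma) and for Rpl11 -0.42 (SE 0.16, adjusted p = 0.729).

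Cre in wild type cells was compared as WT-Cre against WT-GFP. Of the 47 members 0 passed (limma), against 0.00759% of all symbols as higher and 0.00759% as lower, and 0 members and 312 symbols had an unadjusted p under 0.05. The median was -0.15, against -0.03 over all symbols. Every WT-Cre library lay below every WT-GFP library in 15 members, among them Rplp0, Rplp1, Rps4x, Rps19 and Rpsa, against 16.3% of all symbols, and above in 1 (Rpl9), against 9.31%. The difference between the responses to Cre in floxed and wild type cells (the interaction) also gave 0 members, among 0.00759% of all symbols as higher and 0% as lower, with a median of -0.09, and 0 members and 324 symbols had an unadjusted p under 0.05. Array weights gave 15 there (2 higher, 13 lower), among 3452 of 13169 symbols called. A missed threshold does not show that the members did not change.

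Within the floxed cells most members were higher in the low-Mki67 libraries. The mean log2 level of the low-Mki67 libraries was higher than that of the high-Mki67 libraries in 38 members and lower in 9, with a median difference of 0.58, against 0.08 over all symbols. In 31 members every low-Mki67 library lay above every high-Mki67 library, against 31.7% of all symbols, and in 3 (Rpl10a, Rpl23 and Rpl24) below, against 23.1%. Against the 6 WT libraries, the low-Mki67 libraries were higher by a median of 1.41 and the high-Mki67 libraries by 0.80, so both sets lay above WT.

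The difference between the sets was largest for Rps14, the gene lost in the 5q deletion syndrome in people, which had 774, 822 and 1151 FPKM in the low-Mki67 libraries and 390, 323 and 331 in the high-Mki67 libraries (log2 difference 1.38). Rps16 (1.36), Rpl35 (1.23), Rps15 (1.21) and Rpl13a (1.20) came next. The difference was smallest for Rps6 (-0.69), Rpl10a (-0.65) and Rpl24 (-0.62). All of these have look-alike rows, as do Rps14 and Rps16. In all, 32 of the 47 members have them. With look-alike rows added, the differences were 0.77 for Rps6, 0.91 for Rpl10a and 0.69 for Rpl24. They were 1.38 for Rps14 and 1.18 for Rps16. The median over 47 members was then 0.77, and 3 members remained negative (Rpl15, Rpl23 and Rpl27). Across the 47 own rows, higher members had larger differences (Spearman's rho with the mean level 0.617, and 0.525 for the change in Hoxa-flox against WT-GFP; n = 47 genes of the same libraries).

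Other genes of translation were read from lists, to set the members beside them. Of 30 further cytosolic ribosomal proteins, 24 were higher in Hoxa-flox (median 1.06) and 23 in Hoxa-del (median 1.03), and 0 lower. Rps3a1 rose from 99.8 ± 3.20 FPKM with the wild type cluster to 189.7 ± 10.4 in Hoxa-flox (SD, n = 3; log2 change 0.92, adjusted p = 0.000225, limma), and Rps15a changed by 1.39 (adjusted p = 0.00045). Of 39 translation factors and other genes with TOP mRNAs, 17 and 18 were higher and 0 lower (medians 0.64 and 0.61). Eef1g, a subunit of the elongation factor complex that reloads eEF1A, averaged 59.3 ± 4.58 and 139 ± 8.63 FPKM (log2 change 1.22, adjusted p = 0.000337, limma), and Eif3m, a subunit of initiation factor eIF3, changed by 0.85 (adjusted p = 0.00075).

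Of 35 ribosome biogenesis genes, 9 were higher in Hoxa-flox (median 0.32) and 18 in Hoxa-del (median 0.61), and 0 lower. Polr1c, a subunit shared by RNA polymerases I and III, changed by 1.31 (adjusted p = 0.00122, limma) and Rrp1b, a nucleolar protein, by 1.04 (adjusted p = 0.0016). Of 40 mitochondrial ribosomal proteins, 5 were higher in Hoxa-flox (median 0.23), and 3 were higher and 1 lower in Hoxa-del (median 0.29). These shares are near or below those of all symbols, 13.3% and 13% higher. Mrps11 changed by 0.57 (adjusted p = 0.0162, limma) and Mrps35 by 0.51 (adjusted p = 0.0235). Of 15 genes of mTORC1 and Myc control, 1 was higher in each comparison, which is also below those shares, and it was Myc, which rose from 77.0 ± 5.31 FPKM with the wild type cluster to 119 ± 18.8 in Hoxa-flox (SD, n = 3; log2 change 0.61, adjusted p = 0.0197, limma). Mxi1, a Myc antagonist, had 0.51 (adjusted p = 0.0525).

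In the floxed libraries taken one by one, the members' median above WT with the same virus was 1.26 to 1.56 in the low-Mki67 libraries and 0.77 to 0.85 in the high-Mki67 libraries. The 30 further cytosolic ribosomal proteins had 1.20 to 1.52 and 0.77 to 0.83. The ribosome biogenesis genes had 0.12 to 0.40 in the low-Mki67 and 0.40 to 0.80 in the high-Mki67 libraries, with the highest of the former (Hoxa-del 2) just above the lowest of the latter (Hoxa-del 1). Translation factors had 0.46 to 0.73 and 0.37 to 0.70, and mitochondrial ribosomal proteins 0.13 to 0.48 and 0.01 to 0.39, so for these lists the sets overlapped. Late neutrophil markers had medians from -1.91 to -1.81 in the low-Mki67 and from -4.13 to -1.70 in the high-Mki67 libraries. The part of Mki67 and of these markers in the order of the sets was not tested.

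**Figure D5:**
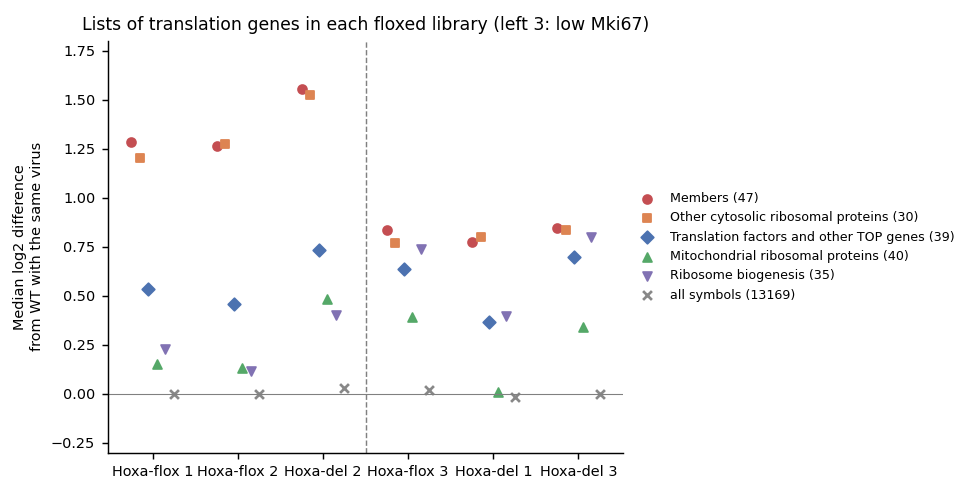
Median log2 difference of each list from the WT libraries with the same virus, in each of the 6 floxed libraries; the number of genes is in the legend and the dashed line separates low-Mki67 (left) from high-Mki67 libraries. The members lie at 1.26 to 1.56 on the left and 0.77 to 0.85 on the right, while all symbols lie near 0.

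Rpl22l1, the paralog of Rpl22, had 7.46, 11.8 and 11.5 FPKM in WT-GFP, 12.3, 9.88 and 10.8 in WT-Cre, 27.1, 30.6 and 37.9 in Hoxa-flox, and 44.4, 32.1 and 37.7 in Hoxa-del. It was higher in every floxed library, as was Rpl22 itself (log2 changes of Rpl22l1 1.56, adjusted p = 0.000159, and 1.69, adjusted p = 9.08e-05, limma). Rps4l, a paralog of Rps4x, had 20.5, 16.1 and 17.1 FPKM in WT-GFP and 14.1, 20.1 and 15.9 in WT-Cre, and was listed at 0 in all 6 floxed libraries. Of 5 tested paralogs, 1 was higher and 2 were lower in each comparison of genotypes. Of 5 tested snoRNA host genes outside the members, 2 were higher in Hoxa-flox and 3 after Cre, among them Snhg6 (log2 changes 1.99, adjusted p = 4.74e-07, and 2.03, adjusted p = 3.91e-07, limma) and Snhg8 (0.86, adjusted p = 0.00102, and 1.31, adjusted p = 5.65e-05).

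The look-alike rows were also fitted on their own. Of the 57 with a mean of at least 1 FPKM, 34 were higher and 0 lower in Hoxa-flox (median 1.06), and 26 higher and 0 lower in Hoxa-del (median 0.85). Among all symbols, 13.3% and 13% were called higher in these comparisons. The look-alike rows share sequence with the members, so they are not separate evidence. By the pyrimidine run, in Hoxa-flox against WT-GFP, 19 of 22 members with it were called and 11 of 16 without it, with medians of 1.12 and 1.05. Rplp0 and Rps4x, shown above without a run, changed by 1.32 and 1.498, and Rpl14 and Rpl18, shown with one, by 1.42 and 1.56.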

How the data were processed

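Per the labels' protocols, total RNA was isolated with TRIzol, depleted of ribosomal RNA, made into stranded libraries and sequenced on a NextSeq instrument. The genome builds mm10 and GRCm38 and the tools Cuffdiff 2.2.2.20150701, Cufflinks and STAR are named per the submitters' processing notes. The deposited values were taken as FPKM, the unit Cufflinks gives; the header states no unit, and how the authors scaled the libraries and treated reads that match several genes is not given in the sources used here. The table has 28042 rows.

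Changes were tested with limma 3.58.1 (R 4.3.3; limma-trend) on log2(FPKM + 1), which understates changes of low genes, in 1 fit of 12 libraries in 4 groups over 13169 symbols (mean over all libraries not under 1 FPKM), with Benjamini-Hochberg adjustment over all of them and a threshold of 0.05. All 47 members passed this filter. The fit was also run on simulated data in which each gene had the same spread in all 12 libraries. The groups here differ in spread, so that run does not cover them. Depth was estimated from ratios between values under a mean of 0.3 FPKM. The members, the gene lists and the tests were chosen with earlier results of these data known.

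Values in every library are given for the stalk, 5S and ubiquitin members, Rps19, Rps4x, Rpl22 and Rpsa, the 3 largest and 3 smallest changes in Hoxa-flox against WT-GFP, and the 2 highest and 2 lowest levels, and from each translation list for the 2 genes with the smallest adjusted p, plus Rpl22l1, Myc and Mki67. Other members, such as Rps6, Rps14, Rpl10 and Rps3, were named after their values were seen. Gene models and coding sequences are from GENCODE M21 (GRCm38), start regions from RefSeq (GRCm38.p6). Alternatives were a pseudocount of 0.1, no filter, 2 rescalings, array weights, a fit of only 2 groups, the replicate number or the library set as a term, all rows of a symbol summed, and each library left out. After the data were seen, fits without each library set and with look-alike rows summed into the member were added. Python 3.11.15, pandas 2.3.3 and numpy 2.4.6 were used.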

Additional observations from a re-analysis of the deposited data

How the results depend on the processing

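In Hoxa-flox against WT-GFP the count ran from 28 to 38 when each library was left out, and was 36 without the low-Mki67 libraries and 44 (1 of them lower) without the high-Mki67 libraries, with 5618 and 7430 of 13169 symbols called. In Hoxa-del against WT-Cre it ran from 23 to 38, with the lowest count without WT-Cre 3, and was 22 with only the 2 groups compared; without the low- and high-Mki67 libraries it was 40 and 42 (1 of them lower), with 6021 and 7580 symbols called. These sets were chosen by the data, and leave Hoxa-flox 3 or Hoxa-del 2 alone in its group, with a spread assumed like that of the other groups. In Hoxa-del against Hoxa-flox, array weights gave 28 members, among 5173 of 13169 symbols. Leaving out each library gave 0 to 1, the 1 without Hoxa-del 2, where 787 symbols were called. The interaction gave 15 with array weights, among 3452 of 13169 symbols, and 0 without any single library. WT-Cre against WT-GFP gave 0 throughout. With each library left out, 2405 to 4195 of 13169 symbols were called in Hoxa-flox against WT-GFP. In Hoxa-del against WT-Cre there were 2552 to 3995, and 2399 with only the 2 groups compared. Array weights gave 45 members (1 lower) in Hoxa-flox against WT-GFP, among 9186 symbols, and 40 in Hoxa-del against WT-Cre, among 4813. Without the filter on low values the 2 counts were 30 and 31, among 3924 and 4211 of 25263 symbols. The cause of these differences was not tested.

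With the replicate number as a block, 40 members were called in Hoxa-flox against WT-GFP, among 3593 of 13169 symbols. In Hoxa-del against WT-Cre there were 39, among 3635 symbols, and in the others 0. The replicate numbers do not pair the libraries: deviations of same-numbered libraries correlated at -0.301 to 0.721 between Hoxa-flox and Hoxa-del and at -0.005 to 0.09 between WT-GFP and WT-Cre.

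For the 17 members described by name, the sign turned in 4 of 289 values in Hoxa-flox against WT-GFP, 11 of 289 in Hoxa-del against WT-Cre, 14 of 272 in Hoxa-del against Hoxa-flox, 11 of 255 in WT-Cre against WT-GFP and 53 of 357 in the interaction. In Hoxa-flox against WT-GFP, Rpl5 had -0.042 and Rpl24 0.13 without the low-Mki67 libraries, and with look-alike rows Rpl24 had 0.61 and Rps12 0.76. In Hoxa-del against WT-Cre, Rps12 had -0.0757 with equal sums outside the 10 highest rows, -0.0491 with array weights and -0.24 without the high-Mki67 libraries; it ran from -0.43 (without WT-Cre 3) to 0.56 when each library was left out. Rpl24 had 0.0499 with array weights, 0.0503 without the low-Mki67 libraries and 0.55 with look-alike rows, and -0.32 to 0.0503 when each library was left out (positive without Hoxa-del 2), and Rps23 had -0.0016 without the high-Mki67 libraries. Rplp2 in Hoxa-del against Hoxa-flox had 0.13 with the library set as a term and -0.61 (without Hoxa-del 2) to 0.0056 (without Hoxa-del 3) when each library was left out, and in WT-Cre against WT-GFP -0.16 to 0.0885 (without WT-Cre 3). The cause was not tested.

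Some calls of single members ended under other settings. Without the filter on low values, adjusted p was 0.0731 and 0.175 for Rplp1 (control virus and Cre), 0.057 for Rplp2, 0.0683 for Rpl32 and 0.0747 for Rps23. With equal sums outside the 10 highest rows it was 0.162 for Rps23 and 0.082 for Rps27a (Cre), and with only the 2 groups compared, 0.129 for Rplp1 and 0.0536 for Rpsa (both with Cre).

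The spread differed between groups, with a median SD of the members on the log2 scale of 0.122 (WT-GFP), 0.143 (WT-Cre), 0.324 (Hoxa-flox) and 0.506 (Hoxa-del), while the fit shares 1 spread. The table gives FPKM and no counts, so no counting interval could be had.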
